A study of Mus musculus with 36 samples.

Results

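The comparison is between muscle stem cells with both copies of Ccnd1 floxed and Cre induced and muscle stem cells with 2 intact copies, both from young mice, across 11337 genes. It rests on 8 of the 36 RNA libraries of the series, 5 from knockout mice (KO) and 3 from wild-type mice (WT), chosen by the genotype and age in the labels. All 8 mice were male, 3 months old, of the strain labelled C56BL/6, and carried Pax7_CreERT2 and R26R_YFP. KO mice were Ccnd1_flox/flox and WT mice Ccnd1_+/+. Tamoxifen was given to both groups, so the controls also had an active Cre and the YFP reporter, and living YFP+ cells were sorted from muscle 6 weeks later. Values from 4 young heterozygous libraries (HET, Ccnd1_+/flox, same age and treatment) and 3 libraries of 18-month-old Ccnd1_+/+ mice (old WT, same alleles and also 6 weeks after tamoxifen) are given beside some results. The other 21 libraries, used for a few checks, came from male mice labelled wild type for Ccnd1 that had a running wheel for 3 weeks, free to turn or locked. Of these, 6 locked and 3 free came from 3-month-old and 7 locked and 5 free from 18-month-old mice, and their cells were sorted by surface markers (CD31-, CD45-, Sca1-, VCAM+) and not by YFP. Each library came from 1 mouse.

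Muscle stem cells, or satellite cells, lie under the sheath of the muscle fibre, express the transcription factor Pax7 and stay out of the cell cycle until muscle is injured. Cyclin D1, the product of Ccnd1, is made in response to growth signals and activates the kinases Cdk4 and Cdk6. These phosphorylate the retinoblastoma protein Rb, which releases E2F factors and lets genes for DNA replication be transcribed. Genes for mitosis are switched on later in the cycle through B-Myb and FoxM1, and are held down in resting cells by the DREAM complex, which contains an Rb relative and binds a promoter element called the cell cycle homology region (CHR).

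In the deposited table a level is in RPKM, read density scaled by transcript length and library size, which allows levels of different genes to be compared. The 8 libraries summed to 297153 to 350969 RPKM, and 10503 to 10602 genes exceeded 1 RPKM in each. The read depth of each library is unknown, and so no counting error is given. The first principal component of the 8 libraries took 30.9% of the variance and held every WT library on one side (17.9 to 32.3) and every KO library on the other (-25.4 to -8.95). The deposited values lack 6 directions of variation between libraries, and 38.3% of the KO minus WT contrast lay in those directions. After that adjustment the young WT libraries and the young locked-wheel libraries of the same series differed at an unadjusted p under 0.05 by limma in 0 genes, and the effect of this adjustment on the p-values below was not tested.

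Loss of Ccnd1 was visible in every KO library. WT libraries held 11.2, 10.6 and 13.3 RPKM of Ccnd1 (chromosome 7, 144929931 to 144939925, mm10), and KO libraries held 3.40, 2.47, 2.07, 2.72 and 2.88. The groups did not overlap, and the 4 HET libraries lay between them at 8.13, 6.37, 7.08 and 7.14 RPKM. Mean Ccnd1 in KO was 23.1% of that in WT, a log2 difference of -2.12 ± 0.15 (SE), with a two-sided exact permutation p of 0.0179, the smallest that 56 splits allow. The floxed exons are not named in the labels, and the part of the remaining signal that comes from exons outside the deletion was not tested. In bulk RNA, fewer cells of a type and less RNA per cell cannot be told apart, here and in all results that follow.

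Across all genes, 793 (6.99%) differed between KO and WT at a Benjamini-Hochberg adjusted p under 0.05 by limma. Of these, 573 (5.05%) were higher in KO and 220 (1.94%) lower. Changes were mostly small: 65 genes (0.573%) were over 2-fold higher and 37 (0.326%) over 2-fold lower. Median-of-ratios scaling moved the split from 72.3% higher to 62.1% higher, with 438 genes higher and 267 lower. The count moved with single libraries: it was 595 without WT library 1, 116 without WT library 2 and 98 without WT library 3. Leaving out a KO library gave 478, 938, 320, 654 and 314 for libraries 1 to 5.

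**Figure D1:**
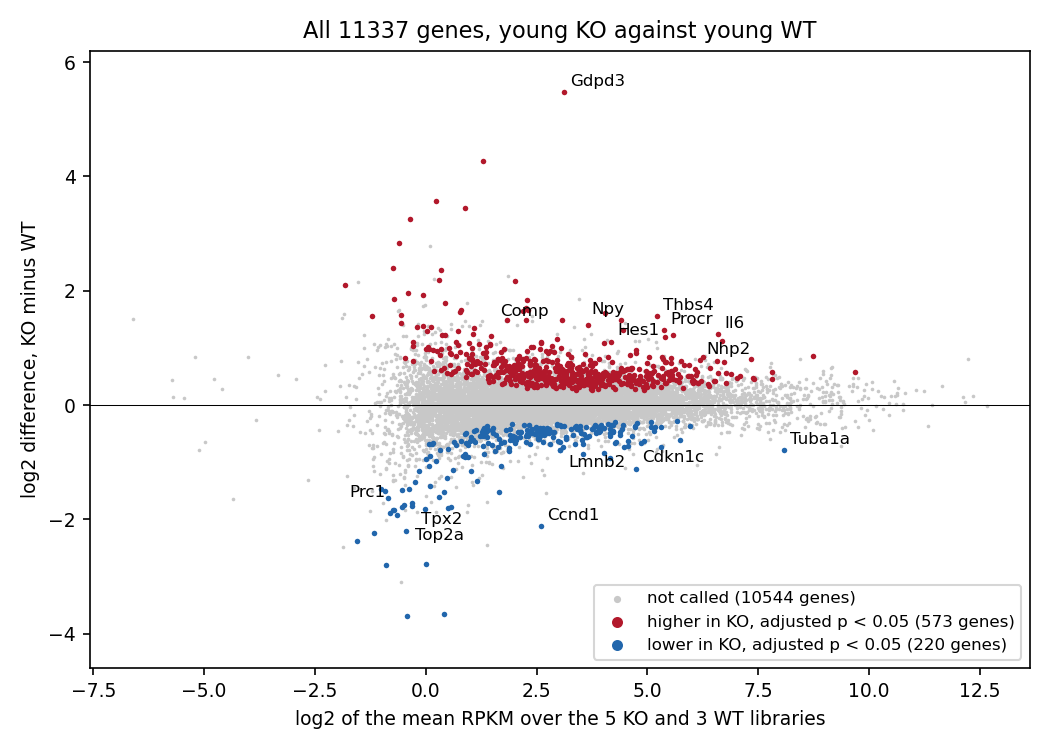
Log2 difference between KO and WT (vertical axis) against the log2 of the mean level in RPKM (horizontal axis), 1 point per gene for 11337 genes, with called genes in red (573 higher) and blue (220 lower). Gdpd3 lies farthest above 0 at 5.47, Ccnd1 lies at -2.12, and the mitotic genes Top2a, Tpx2 and Prc1 lie among the low-level genes below 0.

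Of the other D-type cyclin genes, Ccnd2 was higher in KO. WT libraries held 3.76, 3.76 and 2.83 RPKM of Ccnd2 and KO libraries 4.97, 4.70, 5.08, 4.73 and 4.74, with no overlap. The log2 difference was 0.50 ± 0.12 (adjusted p = 0.0302, limma). HET libraries held 4.27 to 5.39 RPKM, so that Ccnd2 was also higher in HET than in WT (log2 0.54, adjusted p = 0.0314, limma). The call for KO was lost without WT library 2 or 3 or without KO library 1, 3 or 5, with a log2 difference of 0.36 to 0.57 over all 8 omissions.

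The other cyclin, kinase and Rb genes did not pass the test. Ccnd3, the most abundant D-type cyclin in these cells, averaged 18.5 ± 2.13 RPKM in WT (SD, n = 3) and 15.6 ± 1.19 in KO (SD, n = 5). Cdk4 averaged 41.2 ± 1.35 in WT and 38.3 ± 7.82 in KO, and Cdk6 stood near 1 RPKM in both groups. Rb1, which encodes Rb, was 5.09, 5.07 and 5.14 RPKM in WT and 2.96, 4.10, 4.41, 4.72 and 3.71 in KO, with every KO library below every WT library but an adjusted p of 0.0937 (limma). Rbl2, the Rb relative found in DREAM, averaged 3.73 in WT and 3.38 in KO. Rbl1 is not analysed here.

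Of the 6 measured genes for CDK inhibitors, Cdkn1c alone differed, where 6.99% of all genes did. Cdkn1c encodes p57, an inhibitor expressed from 1 parental allele. WT libraries held 27.0, 31.7 and 66.0 RPKM and KO libraries 19.2, 15.1, 17.1, 19.4 and 18.2. All KO values were below all WT values, and WT library 3 was the highest of the 8. The log2 difference was -1.11 ± 0.25 (adjusted p = 0.0223, limma), the call was lost without WT library 2 or 3, and without WT library 3 the difference was the smallest of the omissions at -0.72. HET libraries held 11.9 to 22.3 RPKM, a log2 difference from WT of -1.06 (adjusted p = 0.0365, limma). Cdkn1a, which encodes p21 and was the most abundant inhibitor, averaged 308 ± 41.8 RPKM in WT and 276 ± 39.6 in KO (adjusted p = 0.634, limma). Cdkn1b, Cdkn2b, Cdkn2c and Cdkn2d had log2 differences between -0.28 and 0.18 and did not pass.

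**Figure D2:**
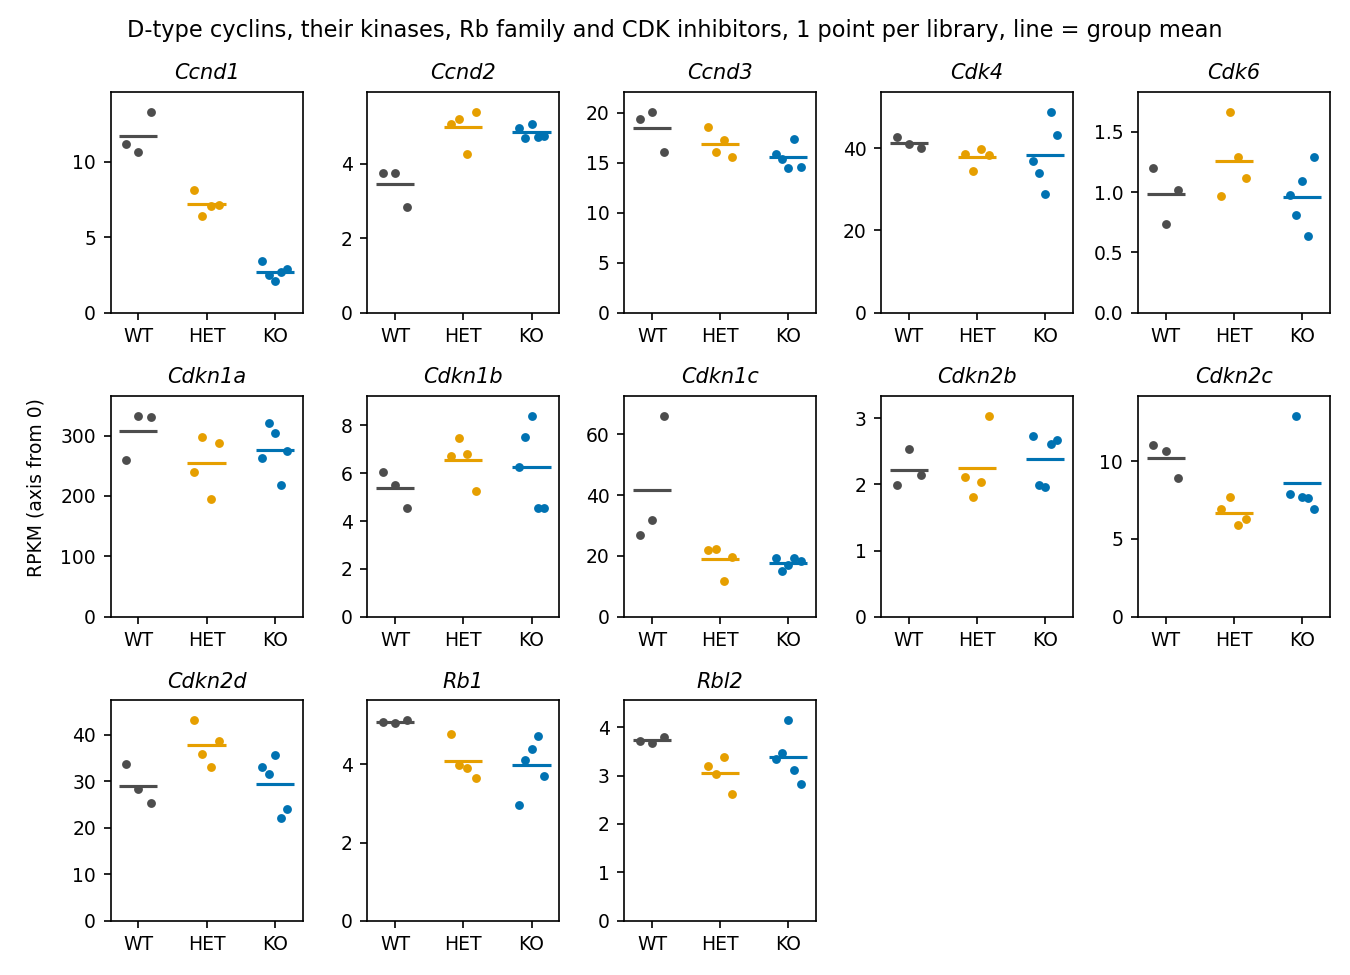
Levels in RPKM (vertical axes, each from 0) of the 13 measured D-type cyclin, kinase, Rb family and CDK inhibitor genes in WT, HET and KO, 1 point per library and a line at each group mean. Ccnd1 steps down from WT through HET to KO, Ccnd2 is higher in HET and KO than in WT, and Cdkn1c is lower in both with WT library 3 at 66.0 RPKM.

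Downstream of Rb, 2 of 13 measured genes of the E-type cyclin, Cdk2 and E2F list were lower in KO (1.94% of all genes were) and none higher, with a list median of -0.23 beside 0.02 for all genes. That median ran up to -0.12 over the 8 omissions (without WT library 3), with -0.13 without WT library 2 or KO library 1 and -0.15 without KO library 4, and was -0.09 with a pseudocount of 1 RPKM. Cdk2, the kinase that acts with cyclins E and A, held 5.52, 5.87 and 6.36 RPKM in WT and 4.28, 4.15, 3.58, 4.21 and 4.14 in KO. The groups did not overlap, with a log2 difference of -0.54 ± 0.09 (adjusted p = 0.00822, limma), which passed in all 8 omissions. HET libraries held 5.05 to 5.85 RPKM of Cdk2, and KO was lower than HET (log2 -0.42, adjusted p = 0.00919, limma). E2f2, an activating E2F, fell from 1.42, 1.49 and 1.37 RPKM in WT to between 0.630 and 0.876 in KO (log2 -0.94 ± 0.26, adjusted p = 0.0422, limma), a call kept in 1 of 8 omissions.

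Replication genes gave few calls. Of 26 measured licensing and DNA synthesis genes 2 were lower (1.94% of all genes were) and none higher, with a median of -0.10. Both encode subunits of the MCM helicase, which is loaded at origins before replication. Mcm2 held 1.47, 1.51 and 1.63 RPKM in WT and 0.582 to 1.05 in KO (log2 -1.06 ± 0.25, adjusted p = 0.0237, limma), a call lost without WT library 2, WT library 3 or KO library 3. Mcm4 held 31.2, 34.5 and 28.7 RPKM in WT and 19.4 to 26.4 in KO (log2 -0.54 ± 0.15, adjusted p = 0.0473, limma), and this call was kept in 1 of 8 omissions. The 11 measured histone genes gave no call in either direction, with a median of 0.09.

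Mitotic genes were the list with the lowest median. Of 24 listed genes, 12 are in the deposited table, and no label gives the rule by which genes entered it. The table holds genes that were high in 1 group alone, and a gene that entered through WT would tend to be lower in KO, so that the counts over these 12 are a description only. Of those 12, 8 were lower in KO, where 1.94% of all genes were, and none higher, with a median log2 difference of -1.48. In 8 of the 12 every KO library was below every WT library, beside 6.61% of all genes. All values were low, from 0.134 to 4.44 RPKM over the 8 libraries, and with a pseudocount of 1 RPKM the median was -0.66. Young WT was not the group with the highest mean for any of the 8 lower genes: all 8 were highest in the young free-wheel libraries (2.09 to 6.01 RPKM, beside 0.949 to 3.59 in young WT). Those libraries are also labelled wild type for Ccnd1, and the effect of entry into the deposited values on these counts was not tested.

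The promoters of 4 of the lower genes are shown, as the part of the gene where the CHR and the CCAAT box, an element bound by the factor NF-Y, lie. Each line is the 100 bases before the RefSeq transcription start in GRCm38.p6 on the strand of the gene, and capitals mark CHR (TTTGAA or TTCGAA) and CCAAT on either strand.
Prc1: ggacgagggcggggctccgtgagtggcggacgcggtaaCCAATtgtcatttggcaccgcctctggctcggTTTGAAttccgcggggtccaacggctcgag
Cdc20: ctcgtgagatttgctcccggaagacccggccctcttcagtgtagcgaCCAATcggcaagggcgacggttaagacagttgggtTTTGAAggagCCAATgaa
Kif11: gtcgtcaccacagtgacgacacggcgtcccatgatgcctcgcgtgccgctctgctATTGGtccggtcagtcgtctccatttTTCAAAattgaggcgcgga
Top2a: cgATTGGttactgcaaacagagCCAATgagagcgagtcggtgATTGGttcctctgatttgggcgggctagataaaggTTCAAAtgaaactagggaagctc
They lie at chr7:80294376-80294475 (Prc1, plus strand), chr4:118437344-118437443 (Cdc20, minus), chr19:37376282-37376381 (Kif11, plus) and chr11:99024190-99024289 (Top2a, minus).

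The CHR began 30, 18, 19 and 23 bases upstream of the start in Prc1, Cdc20, Kif11 and Top2a. Prc1 has 2 starts in RefSeq, and at the start that is not shown the CHR began 5 bases upstream. A CCAAT box lay 32, 35, 26 and 35 bases before it. In windows of 250 bases before to 50 bases after the start, on both strands, 9 of the 12 measured mitotic genes had a window and all 9 held both motifs, beside 6.32% of the 8686 table genes with a window and 8.61% of all 27025 genes. A CHR was in 15.6% of the table genes and a CCAAT box in 42.4%. The 9 include Ube2c, Aurka and Bub1b, which did not pass the test in KO. Ccna2, Tpx2 and Foxm1 had no window.

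Prc1, which bundles the microtubules of the late spindle, held 1.16, 1.02 and 1.63 RPKM in WT and 0.438, 0.344, 0.333, 0.463 and 0.294 in KO. No KO library reached the lowest WT library. The log2 difference was -1.76 ± 0.24 (adjusted p = 0.00485, limma) and passed in all 8 omissions. Tpx2, a spindle assembly factor that activates Aurora A, held 1.06, 1.27 and 2.04 RPKM in WT and 0.499, 0.301, 0.349, 0.574 and 0.400 in KO. Its difference of -1.76 ± 0.27 (adjusted p = 0.00756, limma) also passed in all 8 omissions. With a pseudocount of 1 RPKM, close to the levels themselves, the differences were -0.72 for Prc1 and -0.77 for Tpx2, and both passed.

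Top2a, the topoisomerase that untangles sister chromatids, had the largest difference of the list. It held 1.37, 1.04 and 1.84 RPKM in WT and 0.438, 0.139, 0.204, 0.446 and 0.421 in KO (log2 -2.21 ± 0.37, adjusted p = 0.00897, limma). Kif11, the motor that pushes spindle poles apart, fell from 1.29, 0.881 and 1.34 to 0.347, 0.177, 0.222, 0.415 and 0.461 RPKM (log2 -1.92 ± 0.34, adjusted p = 0.00982, limma). KO libraries 2 and 3 were the lowest of the 8 for both genes. Mki67, which encodes the proliferation antigen Ki-67, held 1.10, 0.586 and 1.46 RPKM in WT. In KO it held 0.583, 0.142, 0.134, 0.462 and 0.301 (log2 -1.84 ± 0.46, adjusted p = 0.0320, limma), so that KO library 1 nearly reached WT library 2. Cyclin genes Ccna2 (log2 -1.63 ± 0.34) and Ccnb2 (-1.16 ± 0.31) and the anaphase activator Cdc20 (-1.32 ± 0.25) were the remaining lower genes.

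The 4 uncalled members were Ube2c (-1.28), Aurka (-0.56), Bub1b (-0.04) and Foxm1 (0.53). Ube2c was 0.200 to 0.479 RPKM in 4 KO libraries and 1.48 in KO library 1, above all WT libraries. HET libraries lay between the groups for Prc1 (0.624 to 0.793), Tpx2 (0.576 to 0.726) and Top2a (0.651 to 0.967). The list's median was -0.46 for HET minus WT, with 1 gene lower (Tpx2), and -0.92 for KO minus HET, with 4 genes lower, where HET minus WT called 386 of all genes lower (3.4%) and KO minus HET 101 (0.891%). In old WT, with intact Ccnd1, Top2a was 0.432 to 0.535 RPKM and Prc1 0.455 to 0.620.

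The count of 8 lower mitotic genes fell to 3 without WT library 3, the library with the highest value for all 8 genes, and to 5 in a fit of the 8 libraries alone. With genes under a mean of 1 RPKM left out, 3 of the 12 were tested and 2 were lower. Summed haematopoietic markers, from cells that also divide, ranged from 105 to 204 RPKM in WT and from 77.8 to 206 in KO, and their part in the mitotic difference was not tested.

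**Figure D3:**
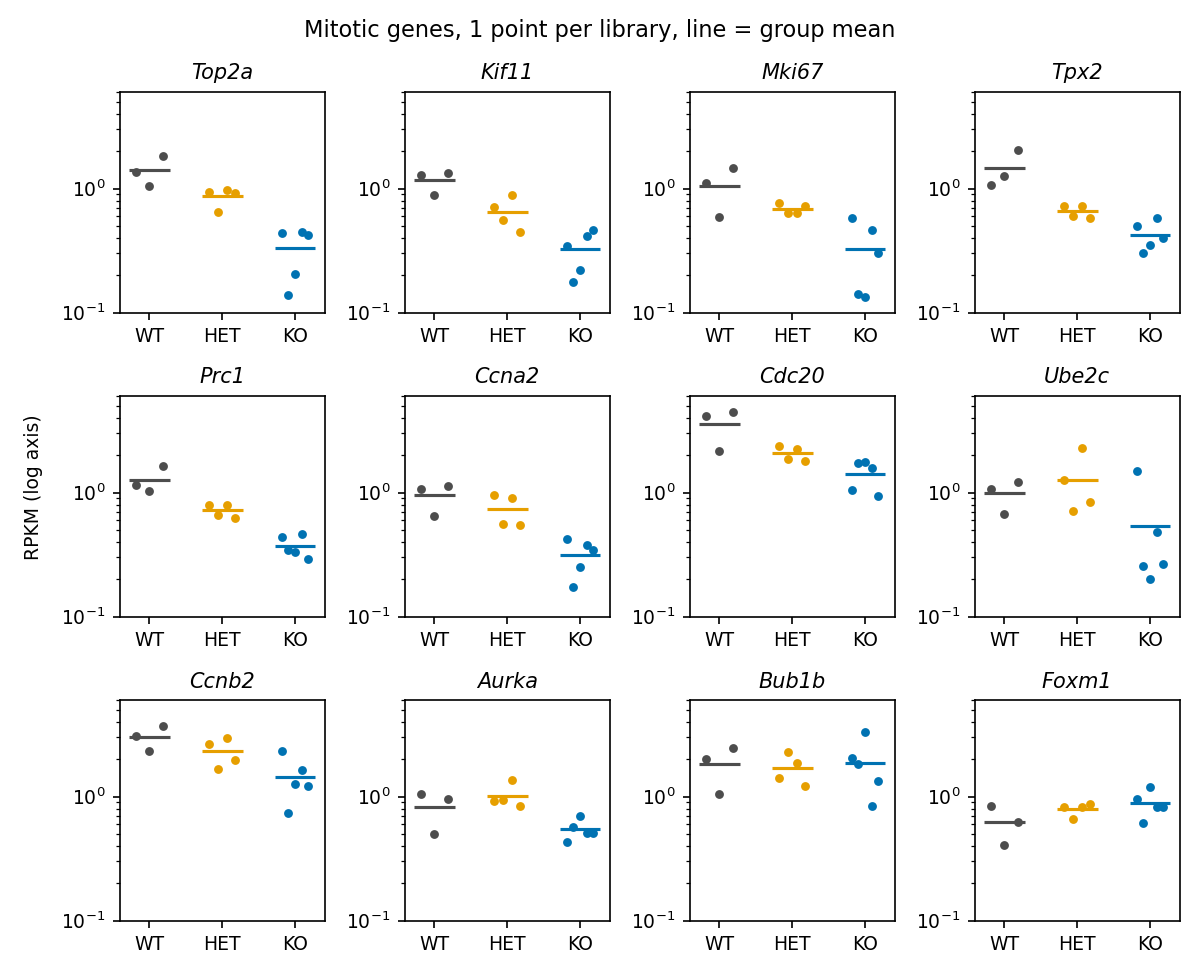
Levels in RPKM (vertical log axes) of the 12 measured mitotic genes in WT, HET and KO, ordered by the log2 difference, 1 point per library and a line at each group mean. For the first 4 genes every KO library lies below every WT library, from Top2a at -2.21 to Tpx2 at -1.76, and Bub1b and Foxm1 overlap between the groups.

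Genes for making ribosomes were higher in KO. All 40 listed ribosome biogenesis factors were measured, 20 were higher, where 5.05% of all genes were, and none lower, and the median log2 difference was 0.39. In 31 of the 40 every KO library was above every WT library, beside 11.2% of all genes. Nhp2, a core protein of the box H/ACA particles that guide pseudouridylation, held 53.3, 48.3 and 49.1 RPKM in WT and 79.1, 79.1, 95.8, 85.0 and 94.7 in KO. Its log2 difference of 0.78 ± 0.12 (adjusted p = 0.00822, limma) passed in all 8 omissions.

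Pes1, which acts in maturation of the large subunit, held 26.6, 24.3 and 23.2 RPKM in WT and 31.5, 30.5, 32.8, 34.6 and 36.1 in KO (log2 0.42 ± 0.07, adjusted p = 0.00927, limma), lost only without WT library 3 among the 8 omissions. Rrs1, another large subunit factor, had the largest difference of the list (0.83 ± 0.16, adjusted p = 0.0123, limma), from 25.0 to 37.6 RPKM in WT to 48.4 to 60.4 in KO. Gar1, which works with Nhp2, ranged from 23.9 to 27.3 in WT and from 36.7 to 46.8 in KO (log2 0.69 ± 0.13, adjusted p = 0.0106, limma). Polr1b, a subunit of RNA polymerase I, ranged from 4.17 to 4.66 in WT and from 6.03 to 7.93 in KO (log2 0.62 ± 0.14, adjusted p = 0.0217, limma). WT and KO did not overlap for either gene. The abundant nucleolar proteins Ncl (log2 0.39, adjusted p = 0.0618), Fbl (0.37, adjusted p = 0.0545) and Npm1 (0.32, adjusted p = 0.164, all limma) did not pass.

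The HET libraries differed from KO here. For HET minus WT the list's median was -0.07, with none higher and 1 lower, beside 225 of all genes higher (1.98%). For KO minus HET 29 of the 40 were higher, beside 584 of all genes (5.15%). Nhp2 in HET held 64.8, 64.6, 43.6 and 57.4 RPKM, and old WT held 113, 96.4 and 97.2. The count of 20 was 5 without WT library 2 and 3 without WT library 3. The sum over the 40 genes did not overlap, at 1472 to 1584 RPKM in WT and 1834 to 2117 in KO. The E-box CACGTG, bound by Myc, was in 7 of the 35 promoter windows of these genes (20.0%) and in 3 of the 19 windows of those that were higher (15.8%), beside 12.3% of table genes.

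Other lists of protein synthesis and mitochondria had medians of 0.11 to 0.36, with calls read beside the 5.05% of all genes that were higher. Mitochondrial ribosomal proteins gave 6 higher of 35 (median 0.20), nuclear genes of oxidative phosphorylation 5 of 43 (0.15), translation factors and tRNA synthetases 4 of 37 (0.11), cytosolic ribosomal proteins 3 of 50 (0.36) and proteasome subunits 1 of 31 (0.17), with none lower in any. The shares of cytosolic ribosomal proteins and proteasome subunits were near or below that of all genes. Mrps23, of the small mitochondrial subunit, held 12.9, 13.0 and 12.6 RPKM in WT and 18.5, 18.5, 19.5, 17.6 and 17.6 in KO. Its log2 difference of 0.51 ± 0.08 (adjusted p = 0.00756, limma) passed in all 8 omissions. Cox5b, a subunit of cytochrome oxidase, rose from 30.5 to 32.4 in WT to 40.1 to 47.6 in KO (log2 0.47 ± 0.10, adjusted p = 0.0150, limma). Of the 50 cytosolic ribosomal protein genes 49 had positive differences, and 3 passed (Rpl35, Rpl5 and Rps15), a count that ranged from 0 to 7 over the omissions. Cytosolic ribosomal proteins and mitochondrial genes gave fewer calls without WT library 2 or 3: none of the oxidative phosphorylation genes and 1 of the mitochondrial ribosomal proteins in each case. Without WT library 1 or KO library 1, 3 or 5, 1 oxidative phosphorylation gene and no cytosolic ribosomal protein passed in each case. The oxidative phosphorylation count rose to 7 without KO library 2 and to 8 without KO library 4.

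**Figure D4:**
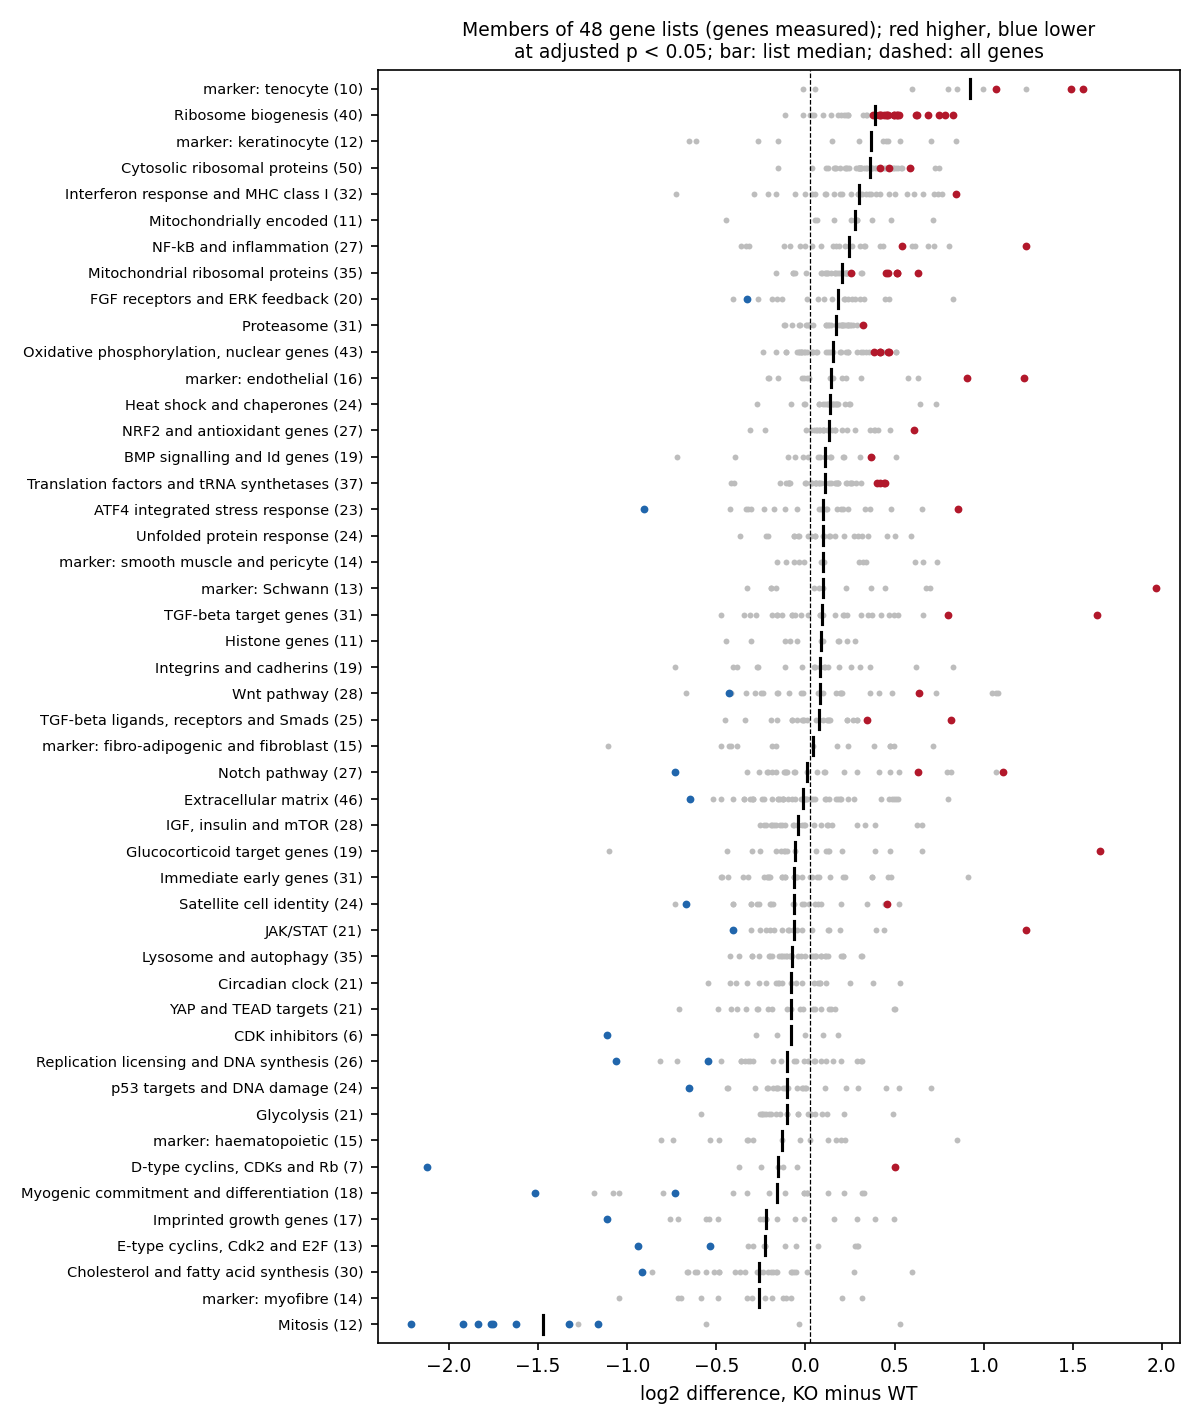
Log2 difference between KO and WT (horizontal axis) for each measured member of 48 gene lists (rows, number measured in brackets, ordered by median), with called genes in red (higher) and blue (lower), a bar at each list's median and a dashed line at the median of all genes, 0.02. Mitosis lies lowest with a median of -1.48, and tenocyte markers (0.92) and ribosome biogenesis (0.39) lie highest.

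The 12 largest increases among called genes of at least 5 RPKM on average held genes of varied function. Gdpd3, a glycerophosphodiester phosphodiesterase that acts on lysophospholipids, was far ahead of the rest. It was 0.125, 0.304 and 0.688 RPKM in WT and 9.15, 12.6, 18.7, 10.3 and 18.0 in KO. The log2 difference was 5.47 ± 1.05 (44.4-fold, adjusted p = 0.0131, limma), lost without WT library 2, and 3.40 with a pseudocount of 1 RPKM. In HET it was 0.226 in library 1 and 13.9, 7.10 and 11.9 in the other 3.

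None of the 27 libraries of the series without a floxed allele exceeded 0.915 RPKM of Gdpd3, and the lowest KO library held 9.15. Gdpd3 lies on chromosome 7 at 126766334 to 126775649 (mm10), 18.2 Mb from Ccnd1. Of 14 other measured genes within 100 kb of it, 2 were called: Mapk3, the kinase gene that ends at 126765819 just before it on the same strand (log2 -0.33 ± 0.09, adjusted p = 0.0443), and Bola2 (0.71, adjusted p = 0.0168, both limma). The call of Mapk3 was kept in 0 of 8 omissions and was lost in the fit of the 8 libraries alone (adjusted p = 0.0949) and of all 36 (0.0674, both limma). On chromosome 7 without Ccnd1, 54 of 827 genes were called (6.53%), and within 20 Mb of Ccnd1 12 of 185 (6.49%), near the 6.99% of all genes. Within 5 Mb 5 of 66 were called (7.58%): Echs1, Ifitm1, Tssc4, Cdkn1c and Tpcn2. Cdkn1c lies 1.47 Mb and Mki67 9.21 Mb from Ccnd1, and whether alleles linked to the floxed copy move with these genes was not tested.

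**Figure D5:**
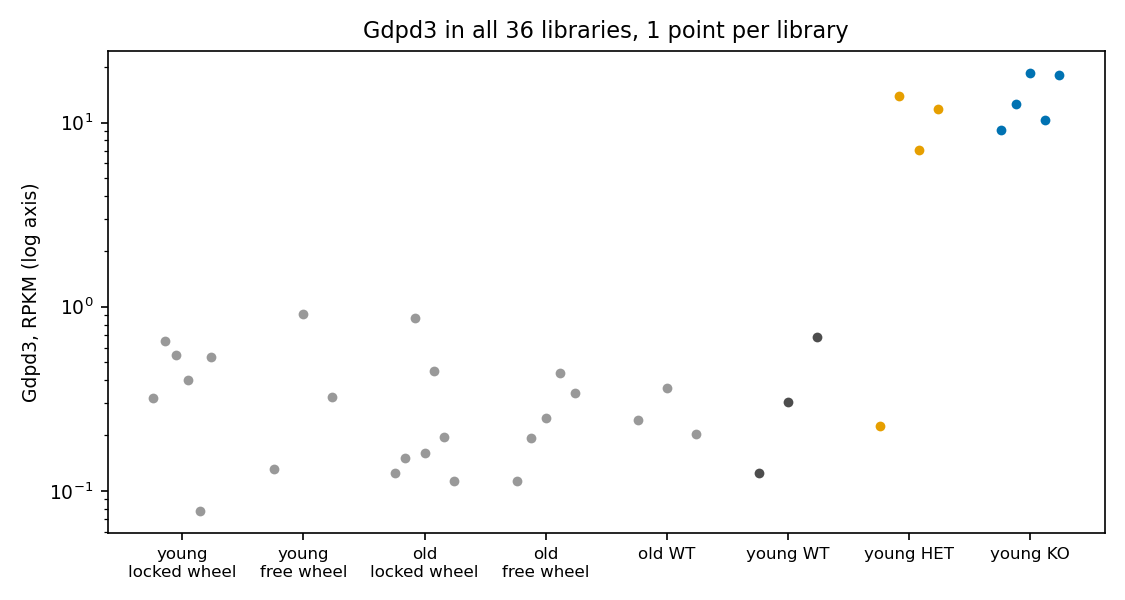
Gdpd3 level in RPKM (vertical log axis) in all 36 libraries by group, 1 point per library. The 5 KO libraries (9.15 to 18.7) and 3 of the 4 HET libraries lie above 5 RPKM, and all 27 libraries without a floxed allele lie at or under 0.915.

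Npy, the precursor of neuropeptide Y, held 5.71, 7.89 and 5.03 RPKM in WT and 17.6, 14.8, 12.6, 16.2 and 20.7 in KO (log2 1.41 ± 0.25, adjusted p = 0.0100, limma). HET libraries held 16.9 to 40.9. Il6, a cytokine that signals through gp130 and Stat3, held 61.1, 45.7 and 47.3 in WT and 111, 83.1, 184, 127 and 115 in KO (log2 1.24 ± 0.24, adjusted p = 0.0132, limma). HET libraries held 87.4 to 192 RPKM of Il6 and old WT 106 to 115. Procr, the endothelial protein C receptor, held 32.0, 22.4 and 13.0 in WT and 44.1 to 63.7 in KO (log2 1.31 ± 0.25, adjusted p = 0.0117, limma).

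These calls were lost without WT library 3 (Npy, Procr) or without WT library 2 or 3 (Il6). Comp and Thbs4, matrix proteins of tendon and cartilage, Rbp7, a retinol-binding protein, Plvap, a protein of endothelial openings, Mpp7, a polarity scaffold, and Hs3st1, a heparan sulfate sulfotransferase, were the other protein-coding genes, at log2 differences of 1.16 to 1.56. Snord34 (1.61) and Snord55 (1.31) are small nucleolar RNAs that lie inside introns of other genes, and reads of the host transcripts cannot be told apart from theirs in these values. Without WT library 2 the call was lost for 9 of the 12 genes and without WT library 3 for 11. None of the 12 kept the call in all 8 omissions.

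The 12 largest decreases included 3 genes of the cytoskeleton and nuclear envelope. Tuba1a, an alpha tubulin, held 358, 392 and 342 RPKM in WT and 199.6, 194, 221, 250.02 and 196 in KO. The groups were far apart, with a log2 difference of -0.78 ± 0.11 (adjusted p = 0.00485, limma) that passed in all 8 omissions. HET libraries held 229 to 264 RPKM, also lower than WT (log2 -0.59, adjusted p = 0.0126, limma), and old WT held 213 to 252. Tubb2b, a beta tubulin, fell by 0.87 and Lmnb2, a nuclear lamin, by 0.79 on the log2 scale.

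Sox11, a transcription factor of progenitor cells, held 22.7, 27.1 and 17.5 RPKM in WT and 8.77 to 16.7 in KO (log2 -0.83 ± 0.23, adjusted p = 0.0423, limma). Scd2, a fatty acid desaturase, fell by 0.92, Slc2a12, a glucose transporter, by 0.79, and Gatm, the first enzyme of creatine synthesis, by 0.73. Kdelr3, a receptor that returns proteins to the endoplasmic reticulum, fell by 0.71. Without WT library 3 the call was lost for 10 of the 12, and without WT library 2 for 8. Ccnd1 and Tuba1a kept it in all 8 omissions. For HET minus WT 3 of the 12 increases and 5 of the 12 decreases passed, and for KO minus HET 2 and 3. HET and KO share the WT libraries.

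Identity genes of satellite cells gave few calls. Of 24 measured, 1 was higher and 1 lower, beside 5.05% and 1.94% of all genes, and the median was -0.07. Pax7 held 24.5, 21.9 and 29.2 RPKM in WT and 19.1, 24.6, 17.7, 22.1 and 18.5 in KO (log2 -0.31 ± 0.12, adjusted p = 0.132, limma). Myf5 averaged 208 RPKM in WT, Vcam1, a surface protein of these cells, 170.1, and Myod1, the myogenic factor of activated cells, 699, and none of these passed. Msc, which encodes the myogenic repressor musculin, was 138, 137 and 136 RPKM in WT and 223, 205, 167, 174 and 178 in KO (log2 0.46 ± 0.12, adjusted p = 0.0329, limma). HET libraries moved the other way for Msc, to 83.7 to 116, and KO was above HET (log2 0.89, adjusted p = 0.000711, limma).

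Megf10, a receptor of satellite cells, fell from 23.5 to 28.4 RPKM in WT to 13.1 to 19.2 in KO (log2 -0.67 ± 0.17, adjusted p = 0.0315, limma). Of 18 measured genes of myogenic commitment and differentiation 2 were lower (1.94% of all genes were) and none higher. The median was -0.16, and without 1 library it was -0.01 (WT library 2), -0.10 (WT library 1) or -0.09 (KO library 4). Chrna1, which encodes part of the acetylcholine receptor of muscle, held 33.3, 27.5 and 27.5 in WT and 13.9 to 23.6 in KO (log2 -0.73 ± 0.17, adjusted p = 0.0230, limma). Actc1, cardiac alpha actin, was 3.22, 4.08 and 8.64 in WT and 1.08 to 3.09 in KO (log2 -1.52 ± 0.36, adjusted p = 0.0281, limma). Myog, which drives differentiation, was 16.3, 13.9 and 21.5 in WT and 17.1, 7.30, 4.40, 7.91 and 5.26 in KO (log2 -1.19 ± 0.34, adjusted p = 0.0537, limma). The calls of Msc, Megf10 and Chrna1 were lost without any 1 of the WT libraries, and that of Actc1 without WT library 2 or 3. Calls were also lost without single KO libraries. These losses included Msc without KO library 1 or 5, Megf10 without 1, 3 or 5, and Chrna1 and Actc1 without 3 or 5. Summed myofibre markers were 185 to 404 RPKM in WT and 154 to 208 in KO, with none of 14 called, and their part in the lower Actc1 was not tested.

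Signalling lists gave 0 to 3 calls each. In the list of 27 genes of the Notch pathway, which keeps satellite cells quiescent, 2 were higher and 1 lower, beside 5.05% and 1.94% of all genes. There the target Hes1 rose from 11.7, 10.6 and 8.68 RPKM in WT to 23.6, 21.6, 30.1, 13.6 and 25.4 in KO (log2 1.11 ± 0.21, adjusted p = 0.0116, limma). HET libraries held 19.8 to 26.2 RPKM of Hes1. The ligand Dll4 also rose (0.63 ± 0.13, adjusted p = 0.0150) and Dtx4, a ubiquitin ligase of the pathway, fell by 0.73 (adjusted p = 0.0241, both limma). The call of Dll4, a ligand that endothelial cells express strongly, was lost without WT library 2 or 3 and in the fit of all 36 libraries (adjusted p = 0.0929, limma). That of Hes1 was lost without WT library 3, and that of Dtx4 without any 1 of the WT libraries or without KO library 3. The list's median was 0.01. Summed endothelial markers, Plvap among them, were also higher in KO (179 to 240 RPKM in WT, 251 to 336 in KO), but without Plvap the sums overlapped. The median log2 difference of these markers was 0.15, and their part in the higher Hes1 and Dll4 was not tested.

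Of 25 ligands, receptors and Smads of the TGF-beta pathway, 2 were higher, and of 31 target genes 2 were higher, with none lower in either list. These shares, 8% and 6.45%, were near the 5.05% of all genes that were higher. Tgfb1, the ligand, was 2.99, 3.13 and 3.44 RPKM in WT and 4.46 to 7.57 in KO (log2 0.82 ± 0.19, adjusted p = 0.0237, limma). Smurf1, a ubiquitin ligase for receptors of this family, rose by 0.34 on the log2 scale (adjusted p = 0.0354, limma). The calls of Tgfb1 and Smurf1 were both lost without WT library 2 or 3 or without KO library 3 or 5. Pmepa1, a target that feeds back on Smads, was 111, 128 and 93.8 in WT and 203, 171, 172, 208 and 209.5 in KO (log2 0.80 ± 0.17, adjusted p = 0.0153, limma). Postn, a matrix protein, rose from 1.06 to 3.67 in WT to 4.60 to 7.17 in KO (log2 1.64 ± 0.42, adjusted p = 0.0382, limma). The count of higher target genes was 1 without WT library 2 or 3 or without KO library 1, 3, 4 or 5. In old WT Pmepa1 was 194 to 270.4 RPKM.

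Counts in the lists that follow are read beside the 5.05% of all genes that were higher and the 1.94% that were lower. In the Wnt list of 28 genes the receptor Fzd8 was higher (0.64) and the kinase Gsk3b lower (-0.43). Of 27 NF-kB and inflammatory genes Il6 and the chemokine Cxcl12 (0.54) were higher, of 21 JAK/STAT genes Il6 was higher and Stat5b lower (-0.41), and of 32 interferon and MHC class I genes the factor Irf1 was higher (0.84). Irf1 was 166 RPKM in KO library 3 and 69.2 to 83.8 in the other KO libraries. Its call was lost without any 1 of the WT libraries and without KO library 1 or 5. The fit of the 8 libraries alone, median-of-ratios scaling and eBayes without trend and robust settings also lost it. BMP genes gave 1 higher of 19 (the co-receptor Rgma, 0.37) and FGF and ERK genes 1 lower of 20 (Mapk3). The call of Rgma was lost in each of the 8 omissions. It was also lost in the fits of the 8 and of all 36 libraries and with median-of-ratios scaling. The p53 list gave 1 lower of 24 (Ccng1, -0.66). No call in either direction was made among 28 IGF, insulin and mTOR genes (median -0.04), 31 immediate early genes (-0.07) or 21 YAP and TEAD targets (-0.08). Most of these calls were lost without WT library 2 or 3: of the 67 called genes selected by the naming rule, 48 lost it without WT library 2 and 59 without WT library 3.

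Metabolic and stress lists gave 0 to 2 calls each, where 5.05% of all genes were higher and 1.94% lower. Cholesterol and fatty acid synthesis had a median of -0.26 with 27 of 30 differences negative, and 1 gene passed (Scd2). The ATF4 list of 23 gave Cebpb higher (0.85) and Gpt2, a mitochondrial alanine aminotransferase, lower (-0.91). The antioxidant list of 27 gave Gsr higher (0.61) and the glucocorticoid list of 19 gave Lcn2 higher (1.65). Lcn2 was low, at 0.374 to 1.15 RPKM in WT and 1.51 to 3.63 in KO. The calls of Cebpb, Gsr and Lcn2 were lost with a pseudocount of 1 RPKM and with median-of-ratios scaling. They were also lost with eBayes without trend and robust settings and in the fit of the 8 libraries alone. The 21 glycolytic, 24 unfolded protein response, 24 heat shock, 35 lysosomal, 21 circadian and 11 mitochondrially encoded genes gave none. Of 46 matrix genes Col19a1 was lower (-0.65), of 19 integrins and cadherins none was called, and of 17 imprinted growth genes Cdkn1c was lower.

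Markers of other cells were compared because the sort could hold them. Of 16 endothelial markers 2 were higher (12.5%, beside 5.05% of all genes) and none lower: Cldn5, a tight junction protein, at 19.5, 18.99 and 13.1 RPKM in WT and 23.8 to 43.8 in KO (log2 0.91 ± 0.18, adjusted p = 0.0132, limma), and Plvap (1.22 ± 0.34, adjusted p = 0.0462, limma). Pecam1, which encodes CD31, was 17.1, 17.0 and 9.11 in WT and 17.4 to 25.8 in KO and did not pass (adjusted p = 0.0556, limma). Cdh5, the endothelial cadherin, was 12.5 to 16.0 in WT and 12.2 to 17.3 in KO. The summed endothelial markers, given above, did not overlap between the groups. That sum includes Plvap, at 12.5 to 37.7 RPKM in WT and 36.7 to 98.8 in KO. Without Plvap the sums of the WT and KO libraries overlapped. The list's median was 0.15. Kdr (-0.21), Erg (-0.20), Tie1 (-0.16), Sox17 (-0.02) and Vwf (-0.01) had negative differences, and the other markers positive ones. The part of endothelial cells in the higher Procr, Plvap, Rbp7 and Il6 was not tested. Without WT library 3, 0 of the 16 were called.

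Of 10 tenocyte markers 3 were higher (Comp, Thbs4 and Cilp2; 30%, beside 5.05% of all genes) and the median was 0.92, or 0.59 without WT library 3. Thbs4 was 33.5, 19.9 and 5.61 RPKM in WT and 29.1, 43.5, 67.5, 39.4 and 59.6 in KO, with WT library 3 far below the others. Comp was 5.71, 3.72 and 2.61 in WT and 8.16 to 15.4 in KO. Summed tenocyte markers were 59.0 to 208 RPKM in WT and 167 to 279 in KO, and without WT library 3 none of the 10 was called. The defining tendon factors Scx (1.26 to 2.04 RPKM in WT, 1.66 to 3.05 in KO) and Mkx (2.25 to 4.91 and 2.99 to 4.20) did not pass. The part of tendon cells in the higher Comp and Thbs4 was not tested.

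Of 13 Schwann cell markers 1 was higher, beside 5.05% of all genes. It was the receptor Gfra3, from 0.173 to 0.415 RPKM in WT to between 0.471 and 1.74 in KO (log2 1.97 ± 0.48, adjusted p = 0.0289, limma). Gfra3 was also higher in HET than in WT (log2 2.28, adjusted p = 0.0224, limma). The call for KO was lost without WT library 2 or 3 or without KO library 1, 3 or 5. A pseudocount of 1 RPKM and the fit of the 8 libraries alone also lost it. None of 15 fibroblast, 15 haematopoietic, 14 smooth muscle and 12 keratinocyte markers was called in KO. Summed fibroblast markers were 939 to 1721 RPKM in WT and 910.03 to 1133 in KO. All 4 HET libraries stood apart from WT and KO in keratins: Krt14 was 31.9 to 95.8 RPKM there, at most 0.0184 in WT and at most 0.0471 in KO. Old WT library 2 held 2.92 RPKM of Krt14, beside 0.0109 and 0.00919 in old WT libraries 1 and 3. The part of the keratin signal in KO minus HET values was not tested. Without the HET libraries in the fit 663 genes differed between KO and WT, 492 higher and 171 lower.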

How the data were processed

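PolyA RNA of sorted muscle stem cells had been sequenced as paired 101-base reads, per the labels. Per the submitters' processing notes, reads were processed with Trim Galore, STAR and featureCounts of Subread against mm10. No source used here gives versions, parameters or the strand setting, which leaves overlapping and antisense genes uncertain. The authors deposited RPKM values for 11337 genes and 36 libraries, with no zeros, of which 11335 identifiers were found in GENCODE M21. A score in the same table, the authors' correlation of each gene with Ccnd1, was not used. The centred log2 matrix had rank 29 of 35, and no source used here says how 6 directions were removed.

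Log2 RPKM values, without pseudocount or filter, were fitted with limma 3.58.1 in R 4.3.3 (1 mean per group, eBayes with trend and robust settings, statmod 1.5.0). The fit took the 15 libraries of the Ccnd1 cohort (young WT, HET and KO, old WT), which share 1 estimate of spread. P-values were Benjamini-Hochberg adjusted over all 11337 genes and called under 0.05. Ccnd1 itself was tested by exact permutation. The method was tested on data simulated with independent noise in each library. Such data lack no direction of variation, so the effect of the missing directions on the p-values was not tested. The labels say that each replicate was 1 mouse, and the first 3 replicate numbers did not pair WT with KO libraries (correlations of deviations -0.08, 0.03 and 0.03).

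Genes were named by rule. They were the 12 largest called increases and decreases with a mean of at least 5 RPKM and every KO library on the same side of the WT mean, clone names left out, and up to 2 called genes in each direction by lowest p in each of 48 lists (1048 of 1159 members measured). D-type cyclin, kinase, Rb and CDK inhibitor genes were named in full. Other genes named with their values were chosen after those values were seen. Members and lists were chosen with earlier results of these data known. Promoter windows came from RefSeq (GRCm38.p6), and motifs were counted on both strands. Alternatives were other sets of libraries, pseudocounts of 0.1 and 1 RPKM, a mean of at least 1 RPKM, median-of-ratios scaling, eBayes without trend and robust, a replicate block and leaving out each library. The fit without HET libraries was added after seeing the data. Figures were drawn with matplotlib 3.10.9 in Python 3.11.15.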

Additional observations from a re-analysis of the deposited data

Results flagged for a closer look

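Of 77 named genes, 5 had 1 KO library that stood apart from the other 4, where chance gives about 1 in 20. The measure is the gap to the nearest library divided by the range of the 5, with a critical value of 0.71. KO library 2 was high for Slc2a12 (gap 0.759943 of the range; 8.54 RPKM, the others 5.62 to 6.21) and for Cdkn2c (0.798832; 12.9 RPKM, the others 6.94 to 7.86). KO library 3 was low for Cdk2 (gap 0.814948 of the range; 3.58 RPKM, the others 4.14 to 4.28) and high for Irf1 (0.781252; 166 RPKM, the others 69.2 to 83.8). KO library 4 was low for Dll4 (gap 0.877936 of the range; 4.12 RPKM, the others 5.05 to 5.20).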

How the results depend on the processing

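The count of 793 called genes (573 higher, 220 lower) moved to 379 (284 and 95) in a fit of the 8 libraries alone, and 349 of these were among the 793. With the young locked-wheel libraries joined to young WT as controls it was 2647 (1715 and 932), and the contrast then held 0% of the missing directions. With the replicate number as a block, 1 gene was called (0 higher, 1 lower), with 2329 at p under 0.05 before adjustment (limma). The numbers did not pair the samples, and not every library correlated best with its own number. Over the 8 omissions of 1 library the count ran from 98 to 938 (75 to 646 higher, 23 to 292 lower). Pseudocounts, the level filter, scaling, the plain eBayes and the fit of all 36 libraries gave 690 to 946. The fit without HET libraries, chosen after seeing the data, gave 663. The cause of these moves was not tested. Of the 77 named genes 67 were called, and 7 of these kept the call in all 8 omissions. Over all named genes, leaving out a library left status and direction unchanged in 357 cases, which include uncalled genes that stayed uncalled. A call was lost in 252 cases and gained in 1, and the sign turned in 6. Other settings, counted in the same way, gave 618, 144, 1 and 3. The sign turned for uncalled genes near 0: Cdk6, which ran from -0.24 over the omissions, without WT library 1 (0.11), KO library 2 (0.0019) or KO library 4 (0.088), Cdkn2b with the block (-0.054), and Cdkn2d, which ran from -0.097 over the omissions, with joined controls (0.052), with the block (0.13) and without WT library 1 (0.11), KO library 4 (0.09) or KO library 5 (0.06). The unknown depth limits genes under about 1 RPKM most, among them 9 of the 12 mitotic genes.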
